A study of Solanum lycopersicum with 9 samples.

Results

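Of the 76513 H3K9ac peaks that the *ddm1* list held on the 12 numbered chromosomes of tomato, 37445 (48.9%) were short new peaks: they were shorter than 1000 bp and shared no bp with any peak of the 4 WT lists, those of H3K9ac, H3K27me3, H3K9me2 and H3K27me1. These members were selected by their length and by their absence from the WT lists, so both properties are descriptions and not results. They covered 13.5 Mb, 32.1% of the covered length of the list, and made up 94.3% of the 39719 *ddm1* H3K9ac peaks of any length that lay outside WT peaks.

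The peak lists came from chromatin immunoprecipitation followed by sequencing (ChIP-seq) of 1-month-old leaves. *ddm1* is the *Slddm1a/Slddm1b* double mutant, made by genome editing and deficient in both tomato copies of the chromatin remodeller DDM1, and WT is the cultivar M82 (*Solanum lycopersicum*) in which it was made. There was 1 list per genotype and mark, except for *ddm1* H3K27me3 with 2 replicates, so no difference between genotypes could be set against the variation between plants. Leaves hold several cell types, and a mark in fewer cells cannot be told apart from less of it in each cell.

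H3K9ac, acetylation of lysine 9 of histone H3, is a mark of active promoters and of the first part of transcribed genes. H3K9me2 and H3K27me1 mark constitutive heterochromatin, which in plants is rich in transposable elements and usually silent, and H3K27me3 is placed by Polycomb complexes, mostly on silent genes. DDM1 lets DNA methyltransferases reach nucleosome-bound heterochromatin, and in its absence many transposable elements lose DNA methylation. An LTR retrotransposon carries its promoter in a terminal repeat that is present at either end of the element, so that a complete element holds copies of that sequence separated by the element's own length.

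The accounting of the *ddm1* list was as follows. A total of 67554 peaks were under 1000 bp, and 25792 of these shared sequence with a WT H3K9ac peak and are called short kept peaks here. A further 4317 lay outside WT H3K9ac but touched another WT list: 1989 shared bp with WT H3K27me3, 1700 with WT H3K9me2 and 708 with WT H3K27me1, some of them with more than 1 of these. Another 2274 peaks met the same absence rule at a length of 1000 bp or more (long new peaks). Short kept and long new peaks serve below as the classes for comparison, together with the whole list.

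Members were mostly weak peaks. Their median length was 290 bp, with 5% of them under 154 bp and 5% over 801 bp, and the shortest possible peak was 150 bp, the extension length used by the authors. The fold enrichment of a peak, its summit signal over the local background estimated by the peak caller, had a median of 2.87 in members, 5.31 in long new peaks and 3.91 in short kept peaks. It ranged between 1.64 and 21.3 in members, and 8.25% of them reached a fold of 5 or more, as did 55.6% of long new peaks and 36.4% of short kept peaks. The read pileup at the summit, recovered from fold and p-value, was a median of 26.0 reads over a background of 7.90 in members, 45.0 over 7.90 in long new peaks and 41.0 over 11.5 in short kept peaks. These medians cover peaks with a −log10 p under 50: 36933 of 37445 members, 1952 of 2274 long new peaks and 21395 of 25792 short kept peaks. The peaks left out had the lowest p-values and were a larger share of the 2 comparison classes. A total of 96.4% of members had a q-value of 0.01 or lower, below the threshold of 0.05 of the list. The lowest background level, which rises with sequencing depth, was 7.02 reads in the *ddm1* H3K9ac list and 6.97 reads in the WT H3K9ac list.

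The length limit fell inside a continuous range. The 758 members of 900 to 999 bp had a median fold of 4.70, and the 632 long new peaks of 1000 to 1099 bp had one of 4.94. Just inside the limit, 3 members of 999 bp had folds of 8.98 (chromosome 2, 55024710 to 55025708, M82 V1.0 assembly), 6.86 (chromosome 8, 29940633 to 29941631) and 3.42 (chromosome 12, 25422617 to 25423615). Just outside it, 3 peaks of 1000 bp had folds of 8.53 (chromosome 7, 13716957 to 13717956), 7.18 (chromosome 8, 13927490 to 13928489) and 6.98 (chromosome 7, 31772936 to 31773935).

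The 3 members of highest fold were an 818-bp peak on chromosome 3 (12902348 to 12903165, fold 21.3), a 788-bp peak on chromosome 12 (36760255 to 36761042, fold 20.7) and a 928-bp peak on chromosome 7 (42131942 to 42132869, fold 20.6). None of the 3 overlapped *ddm1* H3K27me3 in either replicate, *ddm1* H3K9me2 or *ddm1* H3K27me1. Their nearest WT H3K9ac peaks were 27442, 198834 and 434627 bp away, in the same order, whereas the nearest WT H3K9me2 peaks were at 32090, 38446 and 5316 bp.

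Members lay in the central 50% of the chromosomes more often than outside it, a modest excess over an even spread along the length. A total of 22945 members (61.3%, 95% Wilson interval 60.8 to 61.8) had their midpoint in the central 50% of a chromosome, as did 66.7% of long new peaks (64.7 to 68.6), 14.5% of short kept peaks (14.1 to 14.9) and 40.6% of all *ddm1* H3K9ac peaks. The share of members was 46.8 points above that of short kept peaks (95% Newcombe interval 46.1 to 47.4) and lower than that of long new peaks (difference -5.39 points, interval -7.36 to -3.37). These intervals, like all others given here, cover counting error only and treat peaks as independent. The order against short kept peaks was seen at every strength of peak: between 56.2% (fold under 2.5) and 65.3% (fold of 5 or more) of members were central, and between 12.3% and 15.7% of short kept peaks in the same fold classes. Short kept peaks lie by definition on WT H3K9ac sites, which the rule bars for members, so the rule itself enters this contrast. The central share of the sequence outside WT peaks was not measured.

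**Figure D1:**
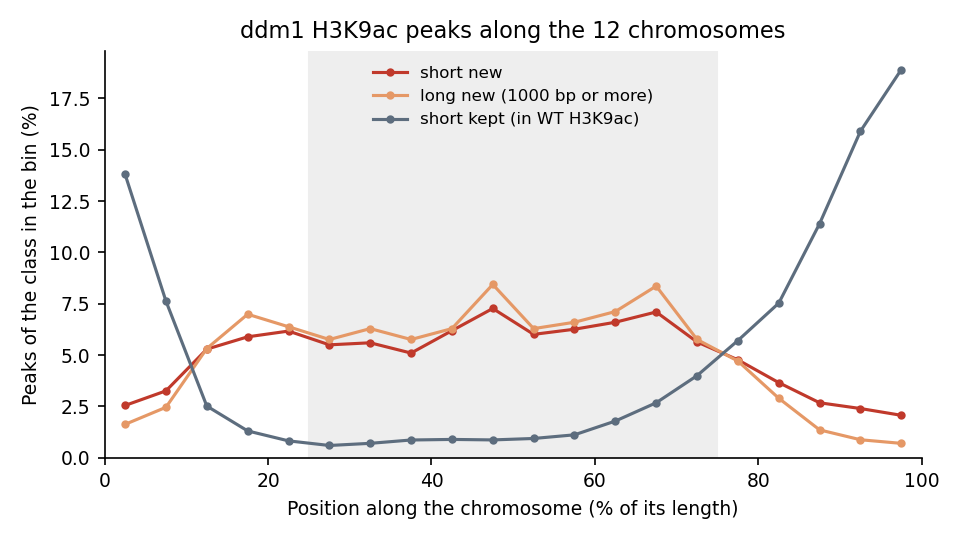
Position of *ddm1* H3K9ac peaks along the chromosomes, in bins of 5% of chromosome length (x axis), as the percentage of each class (y axis); the shaded area is the central 50%. Short new peaks held between 5.10% and 7.27% of the class in each central bin and 2.55% and 2.07% in the outermost bins, while 13.8% and 18.9% of short kept peaks lay in the outermost bins.

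The distribution was broad rather than confined to a few sites. Members occurred at 46.7 per Mb over all chromosomes, and at between 37.7 per Mb (chromosome 2) and 52.6 per Mb (chromosome 12) on the single chromosomes. The central share was lowest on chromosome 2 (45.9%, 43.8 to 48.1), where 34.5% of short kept peaks were also central, and highest on chromosome 4 (69.1%, 67.5 to 70.7), with 10.0% of short kept peaks. It was above the share of short kept peaks on each of the 12 chromosomes. Of 796 complete windows of 1 Mb, 9 held no member, 639 held 20 or more, and the median window held 44.0.

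The 3 densest windows were in chromosome interiors or next to them. The window at 46000001 to 47000000 of chromosome 12 held 128 members of the 145 *ddm1* H3K9ac peaks there, against 3 WT H3K9ac peaks. The window at 28000001 to 29000000 of chromosome 4 held 121 members of 144 *ddm1* H3K9ac peaks, against 11 WT H3K9ac peaks, and that at 15000001 to 16000000 of chromosome 8 held 119 members of 143, against 12. H3K9me2 peaks in these windows numbered 9 in *ddm1* and 12 in WT (chromosome 12), 3 and 12 (chromosome 4), and 10 and 20 (chromosome 8).

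Members at different distances from WT H3K9ac differed in position and fold. The median distance from a member to the nearest WT H3K9ac peak was 51501 bp, and 30777 members (82.2%) were over 10 kb away. Of these distant members 67.9% were central, and their median fold was 2.92. Of the 2146 members within 1 kb of a WT H3K9ac peak, in contrast, 13.6% were central, close to the 14.5% of short kept peaks, and the median fold was 2.51. The 4522 members at 1 to 10 kb fell between them, with 38.8% central and a median fold of 2.78. Short kept peaks, which lie on WT H3K9ac sites, were mostly in the outer parts of the chromosomes. Distance from these sites and position on the chromosome therefore cannot be told apart here. A total of 11.8% of members lay within 1 kb of another *ddm1* H3K9ac peak that was not itself a member.

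Members occurred close together. The median distance between the summit of a member and that of the nearest other member was 1935 bp, whereas long new peaks were a median of 43211 bp apart and short kept peaks 3342 bp. For 18975 members (50.7%, 50.2 to 51.2) another member lay within 2 kb, as did another peak of the same class for 5.50% of long new peaks and 40.2% of short kept peaks. For the whole list of *ddm1* H3K9ac peaks the share was 54.4%, so proximity at this scale was not above that of the whole list. The number of peaks in a class sets this share in part, and long new peaks were fewer.

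To remove the local density of peaks, the number of pairs of members per kb of distance was divided by that at 50 to 100 kb. The ratio was 4.75 (95% interval 4.58 to 4.93) at 250 to 500 bp, 4.45 at 500 to 1000 bp, 2.81 at 1 to 2 kb, 2.11 at 2 to 4 kb, 1.50 (1.48 to 1.52) at 4 to 12 kb and 1.23 at 12 to 20 kb. Over these ranges it fell steadily with distance, but below 250 bp it was 0.277 (0.238 to 0.322). Peaks of at least 150 bp leave little room for 2 summits this close, and in short kept peaks the ratio there was 0.0643. Over 4 to 12 kb, a range that covers the length of many plant LTR retrotransposons, the ratio was 2.46 (2.17 to 2.79) in long new peaks and 1.20 (1.19 to 1.22) in short kept peaks.

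Taken over all members, no distance stood out. Each of 130 bins of 100 bp between 2 and 15 kb was set against the mean of the 10 bins on either side. The ratios were between 0.823 and 1.13, and 0 bins exceeded 1.25. The deviations had an SD of 1.10 in units of the square root of the count, where counting noise alone gives a value near 1. The 47891 pairs in this range amounted to a mean of 3.68 per single bp of distance, and the most frequent exact distance, 2853 bp, was shared by 16 pairs.

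Strong members were spaced differently beyond 2 kb. Among the 728 members with a fold of 8 or more, the pair ratio was 2.73 (1.06 to 5.97, 7 pairs) at 0 to 2 kb, a short-range excess as in all members. It was 0.781 (0.276 to 1.80, 6 pairs) at 2 to 8 kb and 5.31 (3.40 to 8.18, 34 pairs) at 8 to 13 kb. It was 2.60 (1.19 to 5.11, 10 pairs) at 13 to 16 kb, 10.2 (6.18 to 16.3, 26 pairs) at 16 to 18 kb and 1.95 (0.613 to 4.80, 5 pairs) at 18 to 20 kb. The 1-kb bins with most pairs were 9 to 10 kb, with 11 pairs, and 17 to 18 kb, with 16. The fold limits and distance ranges were set after the bins had been seen, so these ratios are a description.

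**Figure D2:**
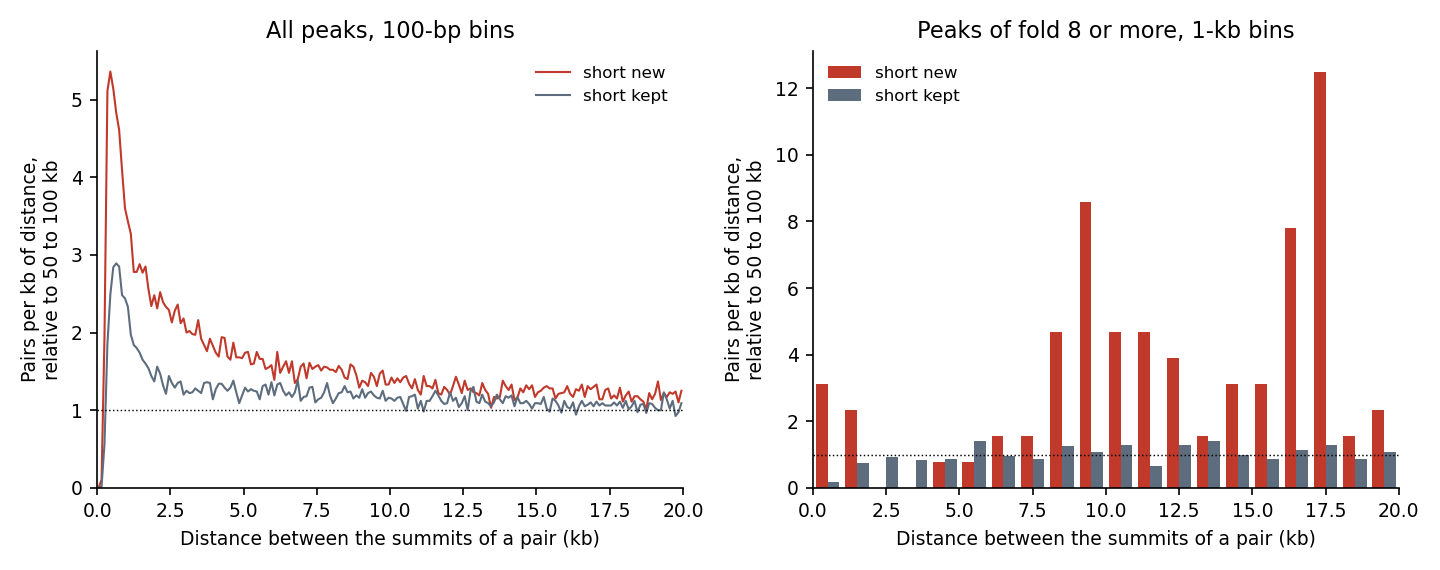
Pairs of peaks per kb of distance, relative to the density of pairs at 50 to 100 kb (y axis, dotted line at 1), by the distance between summits (x axis, kb). Left, all short new and short kept peaks in 100-bp bins, with a ratio for short new peaks that declined smoothly beyond 1 kb; right, peaks with a fold of 8 or more in 1-kb bins, where short new peaks reached 8.59 at 9 to 10 kb and 12.5 at 17 to 18 kb.

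The ratio was higher the higher the fold required, in these ranges and in some of the others. At 16 to 18 kb the ratio was 2.84 (2.29 to 3.49, 102 pairs) for members with a fold of 5 or more, 4.40 (3.23 to 5.89, 54 pairs) for 6 or more, 10.2 for 8 or more and 27.1 (11.4 to 64.9, 13 pairs) for 10 or more. At 8 to 13 kb it was 2.02 (1.71 to 2.37), 2.64 (2.04 to 3.38), 5.31 and 14.2 (6.38 to 32.5) over the same steps. Between these ranges, at 13 to 16 kb, it was 1.13 (0.860 to 1.47), 1.52 (0.994 to 2.24), 2.60 and 4.17 (0.755 to 15.4, 3 pairs), and at 20 to 50 kb it was 1.18, 1.26, 1.56 and 2.08 (0.910 to 4.87). Long new peaks of fold 8 or more had a ratio of 2.67 (1.04 to 6.10, 8 pairs) at 2 to 8 kb, 4.40 (1.95 to 9.27, 11 pairs) at 8 to 13 kb, 5.33 (2.08 to 12.2, 8 pairs) at 13 to 16 kb and 12 (5.49 to 24.8, 12 pairs) at 16 to 18 kb. Their highest value was thus also at 16 to 18 kb, whereas 8 to 13 kb did not stand apart from the ranges on either side, and at a fold of 5 or more their ratio was 3.55 at 2 to 8 kb and 2.77 at 8 to 13 kb. In short kept peaks of fold 8 or more the ratio was 1.12 (0.930 to 1.34) at 8 to 13 kb and 1.21 (0.915 to 1.58) at 16 to 18 kb, with intervals that included 1.

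The lengths of paired strong members were compared next. Lengths within 100 bp of each other were found in 20 of the 34 pairs at 8 to 13 kb (58.8%, 42.2 to 73.6), in 8 of the 10 pairs at 13 to 16 kb (80.0%, 49.0 to 94.3), in 16 of the 26 pairs at 16 to 18 kb (61.5%, 42.5 to 77.6), and in 27 of the 64 pairs at 50 to 100 kb (42.2%, 30.9 to 54.4). The difference from the pairs at 50 to 100 kb was 16.6 points (-3.97 to 35.3) at 8 to 13 kb, 37.8 points (4.51 to 56.1) at 13 to 16 kb and 19.4 points (-3.23 to 39.0) at 16 to 18 kb. The interval thus excluded 0 for the 10 pairs at 13 to 16 kb, and a difference was not detectable in the other ranges. The median ratio of the higher to the lower fold was 1.27 at 8 to 13 kb, 1.34 at 13 to 16 kb, 1.16 at 16 to 18 kb and 1.22 at 50 to 100 kb. The pairs between 8 and 18 kb involved 133 different members and lay on all 12 chromosomes, with between 2 (chromosome 11) and 12 (chromosome 9) on each.

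The 3 strongest pairs of neighbouring peaks at 4 to 12 kb were as follows. On chromosome 3, members at 23679445 to 23679875 (431 bp, fold 18.6) and 23689178 to 23689699 (522 bp, fold 16.8) had summits 9794 bp apart. On chromosome 2, members at 2969685 to 2970291 (607 bp, fold 15) and 2978714 to 2979347 (634 bp, fold 16.6) were 9038 bp apart. On chromosome 7, members at 52714660 to 52715513 (854 bp, fold 13.8) and 52725512 to 52726368 (857 bp, fold 15.8) were 10871 bp apart. No other *ddm1* H3K9ac peak lay between the 2 members of any of these 3 pairs. In each pair the members also matched in length within 100 bp, and none overlapped *ddm1* H3K27me3 in either replicate.

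Other pairs of high fold were more varied. On chromosome 10, members at 56027353 to 56027790 (438 bp, fold 13.1) and 56044881 to 56045369 (489 bp, fold 17.3) had summits 17574 bp apart with 0 *ddm1* H3K9ac peaks between them. On chromosome 6, members at 16476219 to 16477022 (804 bp, fold 16.1) and 16492853 to 16493568 (716 bp, fold 15.3) were 16597 bp apart with 1 such peak between them. The member of highest fold, on chromosome 3, was itself paired with one of fold 16.3 (12913590 to 12914243), 11270 bp away, but their lengths of 818 and 654 bp differed by more than 100 bp and 1 other *ddm1* H3K9ac peak lay between them.

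Members were also found in chains. Where consecutive summits at most 2 kb apart were joined, 18470 members (49.3%) stayed single, 9404 were in chains of 2, 7110 in chains of 3 to 4, and 2461 in 428 chains of 5 or more. Median fold was 2.90 in single members and 2.82 in chains of 5 or more. The central share was 58.6% in single members and 68.3% in chains of 5 or more.

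The longest chain, on chromosome 2 (17117324 to 17131901), held 15 members in 14578 bp, with folds between 2.74 and 7.76 and a median distance between summits of 832 bp. It held 1 other *ddm1* H3K9ac peak, was 236617 bp from the nearest WT H3K9ac peak, and had no bp in *ddm1* H3K27me3. The second, on chromosome 8 (16938519 to 16947140), had 11 members in 8622 bp with folds between 2.64 and 5.30, was 1899 bp from a WT H3K9me2 peak, and was likewise free of *ddm1* H3K27me3. The third, on chromosome 5 (13969533 to 13979779), had 10 members in 10247 bp with folds between 2.24 and 5.69. All of its 10247 bp lay in *ddm1* H3K27me3 of replicate 2 and 0 bp in that of replicate 1.

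**Figure D3:**
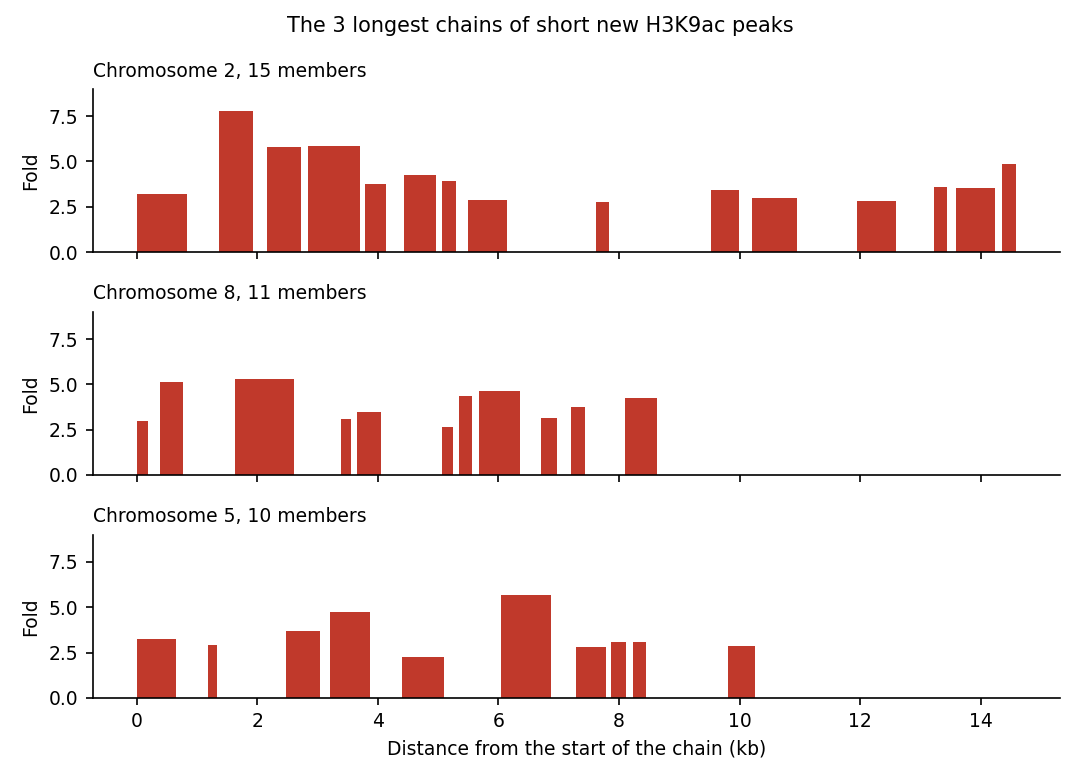
The 3 longest chains of short new H3K9ac peaks, with distance from the start of the chain in kb (x axis) and fold enrichment (y axis); each bar is a member, as wide as the peak. The members were irregular in width and spacing, and the highest fold was 7.76, in the chain on chromosome 2.

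Members and long new peaks lay nearer to WT constitutive heterochromatin marks than short kept peaks did. Within 5 kb, the shares of members were close to those of the whole list. The median distance to the nearest WT H3K9me2 peak was 28101 bp in members, 25850 bp in long new peaks and 102736 bp in short kept peaks. A total of 4136 members (11%, 10.7 to 11.4) were within 5 kb of a WT H3K9me2 peak, as were 10.3% of long new peaks, 3.72% of short kept peaks and 10.0% of all *ddm1* H3K9ac peaks, which unlike members may overlap H3K9me2. With WT H3K9me2 peaks of a q-value of 0.01 or lower the share of members was 2.87%. With the full WT list the difference was 7.33 points from short kept peaks (6.93 to 7.72) and 0.755 points from long new peaks (-0.598 to 1.98). For WT H3K27me1 the median distance was 49440 bp in members, 45934 bp in long new peaks and 255206 bp in short kept peaks. Here 2150 members (5.74%, 5.51 to 5.98) were within 5 kb, as were 5.45% of long new peaks, 1.74% of short kept peaks and 5.02% of the whole list. Short kept peaks were mostly in the outer parts of the chromosomes, so position and distance cannot be told apart in these shares. They also lie by definition on WT H3K9ac sites, which the rule bars for members.

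Seen per Mb of sequence outside WT peaks, members were not simply densest next to heterochromatin. Around WT H3K9me2 peaks the density of member summits was 43.1 per Mb (39.0 to 47.5) in the first 500 bp, where a peak has little room without touching the WT peak, 69.2 (63.9 to 74.8) at 501 to 1000 bp, 51.5 at 1001 to 2000 bp, 42.5 at 2001 to 5000 bp and 59.8 at 10001 to 20000 bp. Beyond 200 kb it was 28.3. Around WT H3K27me1 peaks it was between 37.2 and 42.3 per Mb in each of the 4 distance classes up to 5000 bp, and reached 61.0 (59.8 to 62.3) at 50001 to 100000 bp. Around WT H3K9ac peaks it was lowest at 2001 to 5000 bp, with 22.7 per Mb (21.6 to 23.9), and highest at 20001 to 50000 bp, with 72.9 (71.3 to 74.5).

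The density next to WT H3K9me2 differed more between WT peaks that were lost and kept in *ddm1*. A WT H3K9me2 peak is called lost when it shared no bp with a *ddm1* H3K9me2 peak (8227 peaks) and kept otherwise (1540 peaks). Each of the 2 lists is a single one, and their shortest peaks differed, 700 bp in WT and 500 bp in *ddm1*. A lost peak is thus one without a called *ddm1* peak, and the part of peak calling in this was not tested. Within 500 bp, member summits occurred at 50.0 per Mb (45.2 to 55.2, 400 summits) beside lost peaks and at 4.72 per Mb (1.90 to 9.73, 7 summits) beside kept peaks, a ratio of 10.6 (exact binomial interval 5.09 to 26.5). At 501 to 2000 bp there were 65.5 per Mb beside lost peaks and 11.2 per Mb beside kept peaks, a ratio of 5.85 (4.37 to 8.03). The ratio was 1.99 (1.70 to 2.33) at 2001 to 5000 bp and 1.56 (1.47 to 1.65) at 5001 to 20000 bp, so the contrast was largest within 2 kb of the WT peak. A *ddm1* H3K9me2 peak on a kept WT peak can reach into the sequence counted beside it, and member summits rarely lay in such peaks. The definition of kept peaks may therefore lower the density close to them, and its part in the contrast was not tested.

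**Figure D4:**
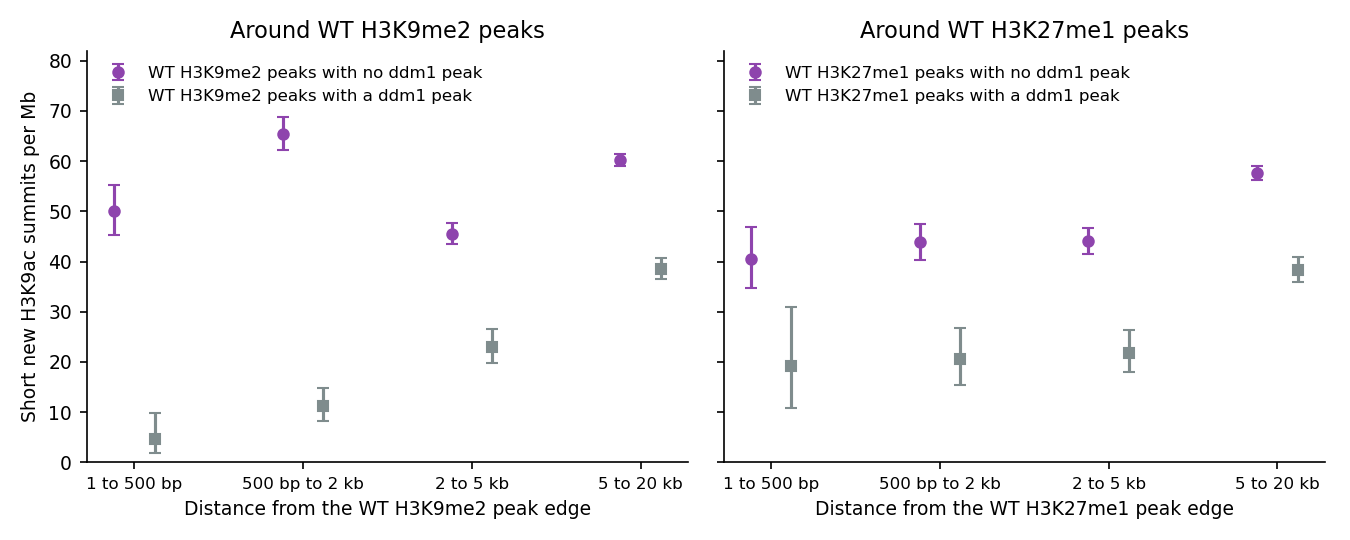
Short new H3K9ac summits per Mb of sequence outside WT peaks (y axis) by distance from the edge of WT H3K9me2 peaks (left) and WT H3K27me1 peaks (right), for WT peaks without (lost) and with (kept) an overlapping *ddm1* peak of the same mark; bars are exact 95% Poisson intervals. Within 500 bp of H3K9me2 peaks the values were 50.0 beside lost and 4.72 beside kept peaks; for H3K27me1 they were 40.5 and 19.1.

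Lost and kept WT peaks also differed in place and strength. Of lost H3K9me2 peaks 60.6% were central and the median fold was 2.09, against 45.6% and 2.30 for kept peaks. In the central 50% alone the ratio was 5.81 (2.63 to 16.0) within 500 bp and 4.89 (3.34 to 7.45) at 501 to 2000 bp. In the outer parts it was 6.91 (4.38 to 11.6) at 501 to 2000 bp, with 1 summit beside kept peaks in the first 500 bp. With WT H3K9me2 peaks of a q-value of 0.01 or lower the ratios were 5.97 (2.46 to 18.8) within 500 bp and 4.71 (3.11 to 7.45) at 501 to 2000 bp. The contrast was thus seen within either part of the chromosome and for the better supported WT peaks, over the distances named. The definition of kept peaks enters each of these ratios, so they cannot separate its part from the rest of the contrast.

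For WT H3K27me1 the contrast was smaller. Members occurred at 40.5 per Mb (34.8 to 46.9) within 500 bp of the 5018 lost peaks and at 19.1 per Mb (10.9 to 31.0) within 500 bp of the 1026 kept peaks, a ratio of 2.12 (1.27 to 3.79). The ratio was 2.13 (1.61 to 2.87) at 501 to 2000 bp, 2.02 (1.66 to 2.49) at 2001 to 5000 bp and 1.50 (1.40 to 1.61) at 5001 to 20000 bp. At 501 to 2000 bp it was 2.33 (1.61 to 3.50) in the central 50% and 1.82 (1.19 to 2.91) outside it.

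Of the 728 members of fold 8 or more, 91 (12.5%, 10.3 to 15.1) were within 5 kb of a WT H3K9me2 peak and 61 (8.38%, 6.58 to 10.6) within 5 kb of a WT H3K27me1 peak. Within 500 bp of a WT H3K9me2 peak, the highest folds were 11.1 (chromosome 2, 17615872 to 17616627, 321 bp away), 10.8 (chromosome 3, 9074797 to 9075645, 342 bp away) and 10.4 (chromosome 3, 23776997 to 23777866, 116 bp away). Within 500 bp of a WT H3K27me1 peak they were 9.42 (chromosome 7, 33771298 to 33771906, 75 bp away), 8.93 (chromosome 10, 31098664 to 31099329, 177 bp away) and 8.05 (chromosome 10, 49771494 to 49772207, 246 bp away).

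Members rarely carried a *ddm1* H3K9me2 peak. A total of 40 members (0.107%, 0.0785 to 0.145) shared a bp with one, while the share was 0.0693% over all *ddm1* H3K9ac peaks and 0.0116% in short kept peaks. Of member summits 0.0801% lay in *ddm1* H3K9me2, which covered 0.721% of the sequence outside WT peaks, a ratio of 0.111 (0.0779 to 0.159). For *ddm1* H3K27me1 248 members (0.662%, 0.585 to 0.750) shared a bp, as did 0.533% of the whole list. Here 0.377% of member summits lay in peaks that covered 0.218% of that sequence, a ratio of 1.73 (1.47 to 2.04). The 2 marks thus differed at members: summits were below the share of sequence for H3K9me2 and above it for H3K27me1. That sequence may include parts where no peak could be called, and their part in the 2 ratios was not tested.

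For *ddm1* H3K27me3 the 2 replicates differed widely, and the file name of the list labelled replicate 2 carries the WT genotype. This list was kept in the group its label gives, and each value is given for both replicates. Replicate 1 covered 23.6 Mb in 32491 peaks and replicate 2 covered 128 Mb in 46317 peaks. A total of 2269 members (6.06%, 5.82 to 6.31) overlapped H3K27me3 of replicate 1, with 7.50% over all *ddm1* H3K9ac peaks. In replicate 2 the number was 13525 (36.1%, 35.6 to 36.6), with 24.7% over the whole list. The mean of the replicates was 21.1% ± 21.3 (SD, n = 2).

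The comparison with short kept peaks turned on the replicate. In replicate 1 members were slightly below short kept peaks (6.06% against 6.69%, difference -0.629 points, -1.02 to -0.242), and in replicate 2 they were 28.5 points above them (36.1% against 7.60%, interval 27.9 to 29.1). No direction common to both replicates was therefore found. Against long new peaks members were lower in replicate 1 (6.06% against 9.23%, difference -3.18, -4.46 to -2.03), and in replicate 2 the interval included 0 (36.1% against 37.4%, difference -1.26, -3.33 to 0.766). Longer peaks have more room to overlap. At the summit alone members stood 1.22 points (0.408 to 1.87) above long new peaks in replicate 1 and 5.92 points (3.98 to 7.77) above them in replicate 2.

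**Figure D5:**
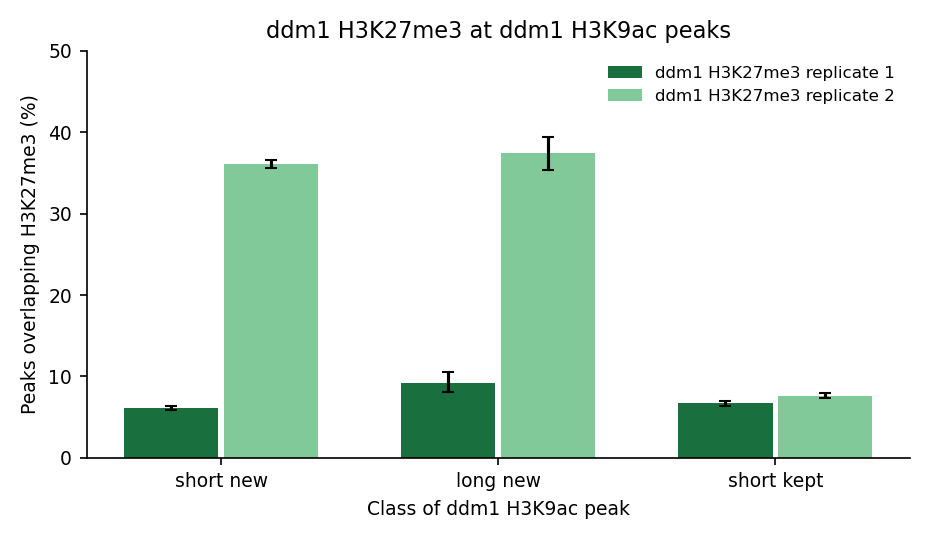
Percentage of *ddm1* H3K9ac peaks that overlapped *ddm1* H3K27me3 by at least 1 bp (y axis), by class of peak (x axis) and H3K27me3 replicate (bars; error bars are 95% Wilson intervals). Short new peaks stood at 6.06% in replicate 1 and 36.1% in replicate 2, and short kept peaks at 6.69% and 7.60%.

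Set against all sequence outside WT peaks, the ratio was above 1 in both replicates. How much of that sequence could yield a peak of either mark is not known, and its part in these ratios was not tested. In replicate 1, 4.21% of member summits (4.01 to 4.41) lay in H3K27me3 peaks that covered 1.62% of the sequence outside WT peaks, a ratio of 2.60 (2.48 to 2.73). In replicate 2, 33.4% of summits (33.0 to 33.9) lay in peaks that covered 15.3%, a ratio of 2.19 (2.16 to 2.22). The summit share over all *ddm1* H3K9ac peaks, which may overlap WT peaks, was 5.52% in replicate 1 and 22.4% in replicate 2. In short kept peaks it was 5.46% and 6.70%. Members were thus below both in replicate 1 and above both in replicate 2. Of members overlapped in replicate 1, 89.9% (88.6 to 91.0) were overlapped in replicate 2 as well, compared with 32.7% of the other members. Over all *ddm1* H3K9ac peaks, 4807 of the 5741 overlapped in replicate 1 were overlapped in both, as were 194 of 210 long new peaks. This agreement was thus not particular to members. As a share of those overlapped in replicate 2, the members common to both were 15.1%.

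The overlap was of a different form in each replicate. In replicate 1, 740 of the 2269 overlapped members (32.6%) were covered over their whole length, and in replicate 2 10860 of 13525 (80.3%). Of the members overlapped in replicate 2, 41.6% (40.7 to 42.4) were in H3K27me3 peaks over 10 kb long. With H3K27me3 peaks of a q-value of 0.01 or lower, 2.60% of members overlapped replicate 1 and 31.4% replicate 2.

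Overlap with H3K27me3 varied with the distance from WT H3K9ac, and less with place on the chromosome and with the strength of the H3K9ac peak. Within 1 kb of a WT H3K9ac peak 0.513% of members overlapped replicate 1 and 3.77% replicate 2, at 1 to 10 kb 5.04% and 17.6%, and over 10 kb 6.60% and 41.1%. Central members (6.38% in replicate 1, 37.7% in replicate 2) were above the outer ones (5.55% and 33.6%). Across 4 fold classes of equal size, lowest to highest, the shares were 5.53%, 5.40%, 6.12% and 7.19% in replicate 1 and 33.1%, 37.7%, 38.6% and 35.1% in replicate 2. On single chromosomes they were between 4.05% (chromosome 2) and 6.97% (chromosome 11) in replicate 1, and between 24.5% (chromosome 2) and 46.5% (chromosome 1) in replicate 2.

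Overlap with H3K27me3 was also counted in the strong members that formed such pairs. Of the 133 members of fold 8 or more with a partner at 8 to 18 kb, 20 (15%, 9.95 to 22.1) overlapped replicate 2 and 6 (4.51%, 2.08 to 9.49) replicate 1. Of the 595 others of that fold, 157 (26.4%, 23.0 to 30.1) overlapped replicate 2 and 42 (7.06%, 5.26 to 9.40) replicate 1. The difference was -11.3 points (-17.6 to -3.53) in replicate 2 and -2.55 points (-5.92 to 2.75) in replicate 1, where it was therefore not detectable. Partners in a pair share their surroundings and are not independent.

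The members of highest fold with H3K27me3 in both replicates were an 811-bp peak on chromosome 9 (53973488 to 53974298, fold 12.9), a 718-bp peak on chromosome 6 (25510233 to 25510950, fold 12.6) and a 522-bp peak on chromosome 9 (21890250 to 21890771, fold 12). Replicate 1 covered 220, 554 and 464 bp of them, in that order, and replicate 2 covered 689, 718 and 493 bp.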

How the data were processed

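ChIP-seq peak lists of WT and *ddm1* leaves were used as deposited. Per the submitters' processing notes and the methods, the authors trimmed reads with Trimmomatic 0.38, mapped them to the M82 V1.0 assembly with Bowtie2 (2.3.5 in the notes), used SAMtools 1.9, and called peaks with MACS3 at a q-value threshold of 0.05 and an extension size of 150 bp. The control, the treatment of reads that map to several places, which decides signal in repeats, and any pooling of replicates are not given in the sources used here. The deposited lists give, for each peak, start and end positions, fold enrichment (a ratio), a score, and p- and q-values as −log10. H3K9ac and H3K27me1 lists carry a summit, and the values of the authors' broad lists (H3K27me3, H3K9me2) are means over the region. The shortest WT H3K9me2 peak was 700 bp and the shortest *ddm1* H3K9me2 peak 500 bp.

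Groups came from the labels. Coordinates are given 1-based. Peaks overlapped when they shared 1 bp. Position was that of the midpoint along the chromosome, whose end was taken as the last peak end of any list (802 Mb in all), and spacing was measured between summits. No significance test was made, since all groups but *ddm1* H3K27me3 had 1 list. The paper states that biological replicates were made for each genotype. Shares have 95% Wilson intervals, their differences Newcombe intervals, rates exact Poisson intervals and rate ratios exact binomial intervals. Interval functions were tested on simulated data. The depth of the libraries is not stated in the lists. For H3K9ac peaks whose −log10 p was under 50, the read pileup at the summit was solved from fold and p-value, and 100% of the solutions were whole numbers within a tolerance of 0.001 in −log10 p. Python 3.11.15 with numpy 2.4.6, pandas 2.3.3 and scipy 1.17.1 was used.

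Regions named are, by rule, the 3 members of highest fold, the 3 nearest the length limit on each side, the 3 longest chains, the 3 densest windows, the 3 strongest neighbouring pairs at 4 to 12 kb, and the 3 strongest with H3K27me3 in both replicates or within 500 bp of WT H3K9me2 or H3K27me1. The pairs named on chromosomes 6 and 10, and the partner of the strongest member, were chosen after their values were seen. Members and lists were chosen with earlier results of these data known. Alternatives tried were a stricter q-value, a distance of 500 bp from WT peaks, a limit of 500 bp in length, absence from WT H3K9ac alone, midpoints, a narrower central zone, larger overlaps, stricter WT or H3K27me3 peaks, and leaving out each H3K27me3 replicate. No genome sequence or annotation of the M82 assembly was used here.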

Additional observations from a re-analysis of the deposited data

Results flagged for a closer look

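Outside the 12 numbered chromosomes, the *ddm1* list held 38 H3K9ac peaks and the WT list 5, on sequences that no comparison used. Of the 38 *ddm1* peaks, 28 were under 1000 bp and shared no bp with a WT peak, and 3 were on the chloroplast sequence.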

How the results depend on the processing

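Of 37 alternative values, 15 moved beyond the error of the value reported. The number of members, which has no replicate error, was 37445 as reported, 36107 with a q-value of 0.01 or lower, 34593 with no WT peak within 500 bp, 29010 with a length limit of 500 bp and 41762 with absence from the WT H3K9ac list alone. The mean H3K27me3 overlap of 21.1% had an SD of 21.3 points, and its alternatives lay within that range, which says little about their stability. With *ddm1* H3K9ac peaks of a q-value of 0.01 or lower, 49.5% of members had another within 2 kb (50.7% as reported). With no WT peak within 500 bp, the central share was 63.7%, that with another member within 2 kb 51.5%, that within 5 kb of WT H3K9me2 9.84% and that within 5 kb of WT H3K27me1 5.17%. With a length limit of 500 bp, the central share was 60.0% and that with another member within 2 kb 45.3%. With absence from the WT H3K9ac list alone, the central share was 59.7%, that within 2 kb 52.0%, the pair ratio at 4 to 12 kb 1.45, and the shares within 5 kb of WT H3K9me2 and WT H3K27me1 14.5% and 7.38%; the members added there may overlap those WT peaks. A narrower central zone, the middle of 3 equal parts of each chromosome, held 41.9% of members. With WT peaks of a q-value of 0.01 or lower, 2.87% of members were within 5 kb of WT H3K9me2, since fewer WT peaks were counted, and 4.95% within 5 kb of WT H3K27me1. Overlap with *ddm1* H3K27me3 was 36.1% without replicate 1 and 6.06% without replicate 2, so it rests on the replicate. No paired analysis was possible because the result comes from no test and only the *ddm1* H3K27me3 group has numbered replicates. Members are weak peaks called from a median of 26.0 reads at the summit, so a site below the threshold in WT counts as absent there; the treatment of repeated sequence is not given, and its part in the spacing was not tested.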
